A study of Mus musculus with 110 samples.

Results

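The effect of a zinc-finger protein (ZFP) on the RNA of whole tissue was measured in R6/2 mice by comparing 4 R6/2 ZFP libraries with 3 R6/2 Delta libraries across all genes. R6/2 is a mouse line that carries the first exon of human mutant huntingtin with a long CAG repeat, and Delta is the control vector of the study. These 7 libraries are the tissue RNA (Input) of the set named n_ZFP_a_Rpl and were chosen by their column labels, out of 110 libraries in the series. The same Input has 4 NCAR ZFP and 4 NCAR Delta libraries. The NCAR libraries carry the same strain label as the R6/2 libraries, and the labels do not expand the abbreviation. Every group received an adeno-associated virus (AAV), and all carry the RiboTag system, in which the ribosomal protein Rpl22 bears an HA tag so that ribosome-bound RNA of 1 cell type can be pulled down (the IP). The cell type label of this set is astrocytes. It is taken here to name the cells pulled down, since the Input was total RNA taken with no pulldown. The labels do not state the tissue, the age of the mice, the promoter of each AAV, which cells received the ZFP in this set, or whether a library was 1 animal. Every p-value therefore measures the spread between these libraries only.

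Zinc-finger repressors of this kind are DNA-binding proteins joined to a repressor domain and directed at CAG repeats, so that transcription of the expanded huntingtin allele is reduced. In Huntington's disease the GABAergic projection neurons of the striatum are the most affected cells. They are divided into direct pathway neurons, which bear D1 dopamine receptors and release tachykinins and dynorphin, and indirect pathway neurons, which bear D2 dopamine receptors and the adenosine receptor Adora2a and release enkephalin. Loss of RNA for their receptors, channels, phosphodiesterases and neuropeptides, often before the cells die, is a well-known feature of the disease and of its mouse models.

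Assigned read counts ranged over 26.37 M to 30.83 M in the R6/2 ZFP libraries and 29.26 M to 31.64 M in the R6/2 Delta libraries. Levels below are CPM, the read counts of a library scaled by its TMM-adjusted total, which are compared between libraries but not between genes. Along the first principal component, which held 44.3% of the variance of the 15 Input libraries, the R6/2 ZFP libraries lay between the R6/2 Delta libraries and the NCAR libraries, without overlap. The Input held RNA of neurons, astrocytes, oligodendrocytes and microglia alike, and striatal projection neuron genes were among it. In R6/2 ZFP libraries the summed astrocyte markers were 6824.5 to 7312.8 CPM, and in R6/2 Delta libraries 7120.1 to 7230.7 CPM. The human transgene has no row in the table. Mouse Htt, the endogenous huntingtin gene, was at 364.5, 362.2, 373.5 and 358.2 CPM in R6/2 ZFP, against 388.2, 374.4 and 374.1 CPM in R6/2 Delta libraries. The groups did not overlap, but the log2 fold change of -0.06 ± 0.03 (SE) did not pass the test (adjusted p = 0.281). Rpl22, whose reads may include those of the tagged gene, was at 131.6, 153.3, 108 and 105.9 CPM in R6/2 ZFP and 98.78, 105.3 and 98.13 CPM in R6/2 Delta libraries (log2 fold change 0.31 ± 0.14, adjusted p = 0.187).

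With the ZFP, far more genes were higher than lower in R6/2 tissue, and most genes of the striatal projection neuron lists were among those that rose. Of 15780 genes tested, 2545 (16.1%) passed an adjusted p of 0.05 in edgeR's quasi-likelihood test with Benjamini-Hochberg adjustment. Of them 1751 (11.1%) rose and 794 (5.03%) fell. The change exceeded 2-fold for 120 genes that rose and 20 that fell, so most changes were modest. The median log2 fold change of all genes was -0.01. For 4218 genes (26.7%) the R6/2 ZFP and R6/2 Delta libraries did not overlap. The count of 2545 rested most on the R6/2 Delta library numbered 2, without which 1677 genes passed. In bulk tissue, fewer cells of a type and less RNA per cell cannot be told apart.

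Most projection neuron genes rose, beside 11.1% of all genes tested. Of 30 genes shared by both kinds of projection neuron, 29 rose and 1 fell, with a median log2 fold change of 0.56. Of 10 indirect pathway genes, 8 rose (median 0.56), and of 10 direct pathway genes, 4 rose (median 0.26). None fell in either pathway list. Summed over the list, shared projection neuron genes were at 15625 to 16989 CPM in R6/2 ZFP and 9613 to 11344 CPM in R6/2 Delta libraries. The lowest of these was the R6/2 Delta library numbered 2, and without it 28 of the 30 genes rose. The NCAR Delta libraries had 26125 to 28205 CPM, so the R6/2 ZFP sums stood above every R6/2 Delta sum and below every NCAR Delta sum. The same order held for the summed indirect pathway genes, at 1381.7 to 1490.3 CPM in R6/2 ZFP, 854.79 to 962.77 CPM in R6/2 Delta and 2332.2 to 2669.5 CPM in NCAR Delta libraries. It held too for the summed direct pathway genes, at 941 to 1030.9 CPM in R6/2 ZFP, 686.62 to 755.32 CPM in R6/2 Delta and 1199.2 to 1264 CPM in NCAR Delta libraries. Gene by gene the direct pathway list was mixed. Of its 10 genes, 6 were lower and 3 higher in R6/2 Delta than in NCAR Delta. In R6/2 ZFP, 4 were lower and 4 higher than in NCAR Delta.

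Ryr1, a calcium release channel of the endoplasmic reticulum, was at 31.65, 27.74, 30.81 and 31.73 CPM in R6/2 ZFP, against 8.45, 6.997 and 8.034 CPM in R6/2 Delta libraries. It had the lowest adjusted p of the shared list (log2 fold change 1.96 ± 0.08, adjusted p = 5.55e-11). Pde10a, the striatal phosphodiesterase that breaks down cyclic AMP and cyclic GMP, was at 1496, 1642, 1490 and 1492 CPM in R6/2 ZFP, against 810.1, 664.1 and 736.3 CPM in R6/2 Delta libraries. Every ZFP library stood above every Delta library (log2 fold change 1.05 ± 0.06). Ppp1r1b, which encodes the dopamine-regulated phosphatase inhibitor DARPP-32, was at 692.3, 715, 652.4 and 601.7 CPM in R6/2 ZFP and 420.4, 329 and 389.2 CPM in R6/2 Delta libraries (0.81 ± 0.08). Rasd2, a small GTPase also called Rhes, rose by a log2 fold change of 1.00 and Rgs9, a regulator of dopamine receptor G proteins, by 0.94. The transcription factors named had smaller values: Bcl11b, needed for projection neuron differentiation, rose by 0.54 and Foxp1 by 0.39. Arpp21, a cyclic AMP-regulated phosphoprotein of striatal neurons, was the list's exception. It was at 377.7, 335, 409 and 438.3 CPM in R6/2 ZFP, against 708.6, 613.9 and 650 CPM in R6/2 Delta libraries (log2 fold change -0.75 ± 0.11, adjusted p = 0.000254).

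Among direct pathway genes, Drd1a, the D1 dopamine receptor under its older symbol, was at 328.4, 347.8, 309.1 and 305.2 CPM in R6/2 ZFP and 206.1, 186.5 and 202.9 CPM in R6/2 Delta libraries. The groups were apart (log2 fold change 0.70 ± 0.05, adjusted p = 5.58e-08). Chrm4, the M4 muscarinic receptor of these neurons, rose by 0.94 and Slc35d3, a protein that helps D1 receptors reach the cell surface, by 0.80. Tac1, the tachykinin precursor, rose by 0.35 ± 0.06, while Pdyn, the dynorphin precursor, had 0.41 ± 0.13 and lay at the edge of the threshold (adjusted p = 0.0522). It passed with DESeq2 (adjusted p = 0.00261), with RLE factors (0.0483) and in a fit of the R6/2 libraries alone (0.0305). On the indirect side Penk, the enkephalin precursor, was at 570.7, 606.1, 577.9 and 607.9 CPM in R6/2 ZFP and 331.2, 278.1 and 309.4 CPM in R6/2 Delta libraries (0.95 ± 0.06). Its ZFP libraries lay close together and clear of all 3 Delta libraries. The adenosine receptor gene Adora2a rose by 0.92 ± 0.07 and Drd2, the D2 dopamine receptor, by 0.67 ± 0.08. Gpr6 and Gpr52, orphan receptors enriched in indirect pathway neurons, rose by 0.74 and 0.69.

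The 12 genes with the highest log2 fold changes, among those averaging 5 CPM or more across the 15 Input libraries and with no overlap between groups, ranged from 1.60 to 3.02. The mean includes the NCAR libraries, and 6 of the 12 genes were below a mean of 5 CPM over the 7 R6/2 libraries. Abhd11os, an RNA from the strand opposite Abhd11, was at 2.213, 1.883, 2.005 and 1.983 CPM in R6/2 ZFP, against 0.287, 0.2786 and 0.1746 CPM in R6/2 Delta libraries. That was a fold of 8.12 (log2 fold change 3.02 ± 0.19, adjusted p = 6.41e-09), though reads of Abhd11 itself may be counted with it, since the strand setting is not given in the sources used here. Its NCAR Delta libraries had 8.501 to 9.585 CPM, so R6/2 ZFP tissue was still far below them. Sec14l3, a lipid-binding protein, was at 1.354, 1.695, 1.714 and 1.616 CPM in R6/2 ZFP and 0.2232, 0.2786 and 0.1455 CPM in R6/2 Delta libraries (2.87 ± 0.31). Both genes were present at low levels in every R6/2 library, and at higher levels in every NCAR library.

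Secreted factors and receptors were also among the 12. Fst, the activin-binding protein follistatin, was at 3.964, 4.425, 4.527 and 6.316 CPM in R6/2 ZFP, against 1.02, 1.022 and 0.9024 CPM in R6/2 Delta libraries (2.29 ± 0.19). Inhba, which encodes an activin subunit, was at 3.138, 3.483, 4.106 and 4.296 CPM in R6/2 ZFP and 1.562, 1.022 and 0.9315 CPM in R6/2 Delta libraries (1.68 ± 0.19). Ligand and binding protein thus both rose, with no overlap of the groups. Htr2a, the serotonin 2A receptor, was at 44.13, 48.96, 40.26 and 40.65 CPM in R6/2 ZFP and 15.11, 14.12 and 11.91 CPM in R6/2 Delta libraries (1.67 ± 0.09). Its NCAR Delta libraries had 32.32 to 39.33 CPM, so Htr2a stood above them in every R6/2 ZFP library (log2 fold change 0.25 ± 0.08, adjusted p = 0.0168). Hrh3, the histamine H3 receptor, rose by 1.60 ± 0.09, and Ror1, a Wnt receptor of the tyrosine kinase type, by 1.72 ± 0.21.

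Cd4, best known as a T cell co-receptor, was at 30.95, 35.3, 31.69 and 28.24 CPM in R6/2 ZFP, against 8.737, 5.015 and 7.394 CPM in R6/2 Delta libraries. The log2 fold change was 2.16 ± 0.15. Ptpn7, a tyrosine phosphatase known from blood cells, followed at 6.045, 6.81, 4.494 and 6.867 CPM in R6/2 ZFP and 1.786, 1.207 and 1.281 CPM in R6/2 Delta libraries (2.09 ± 0.18). Of 8 tested blood and meningeal markers none passed, and 4 haemoglobin genes were too low to be tested. The sum of the list was 102.3 to 133.75 CPM in R6/2 ZFP and 125.76 to 155.79 CPM in R6/2 Delta libraries, which overlapped. The list holds no marker of T cells or other white blood cells, so it cannot bear on the source of Cd4 and Ptpn7 RNA, which was not tested. Scn4b, a sodium channel subunit of projection neurons, was at 576.1, 664.6, 557.9 and 542 CPM in R6/2 ZFP and 191.3, 146.2 and 176.1 CPM in R6/2 Delta libraries (1.77 ± 0.10).

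**Figure D1:**
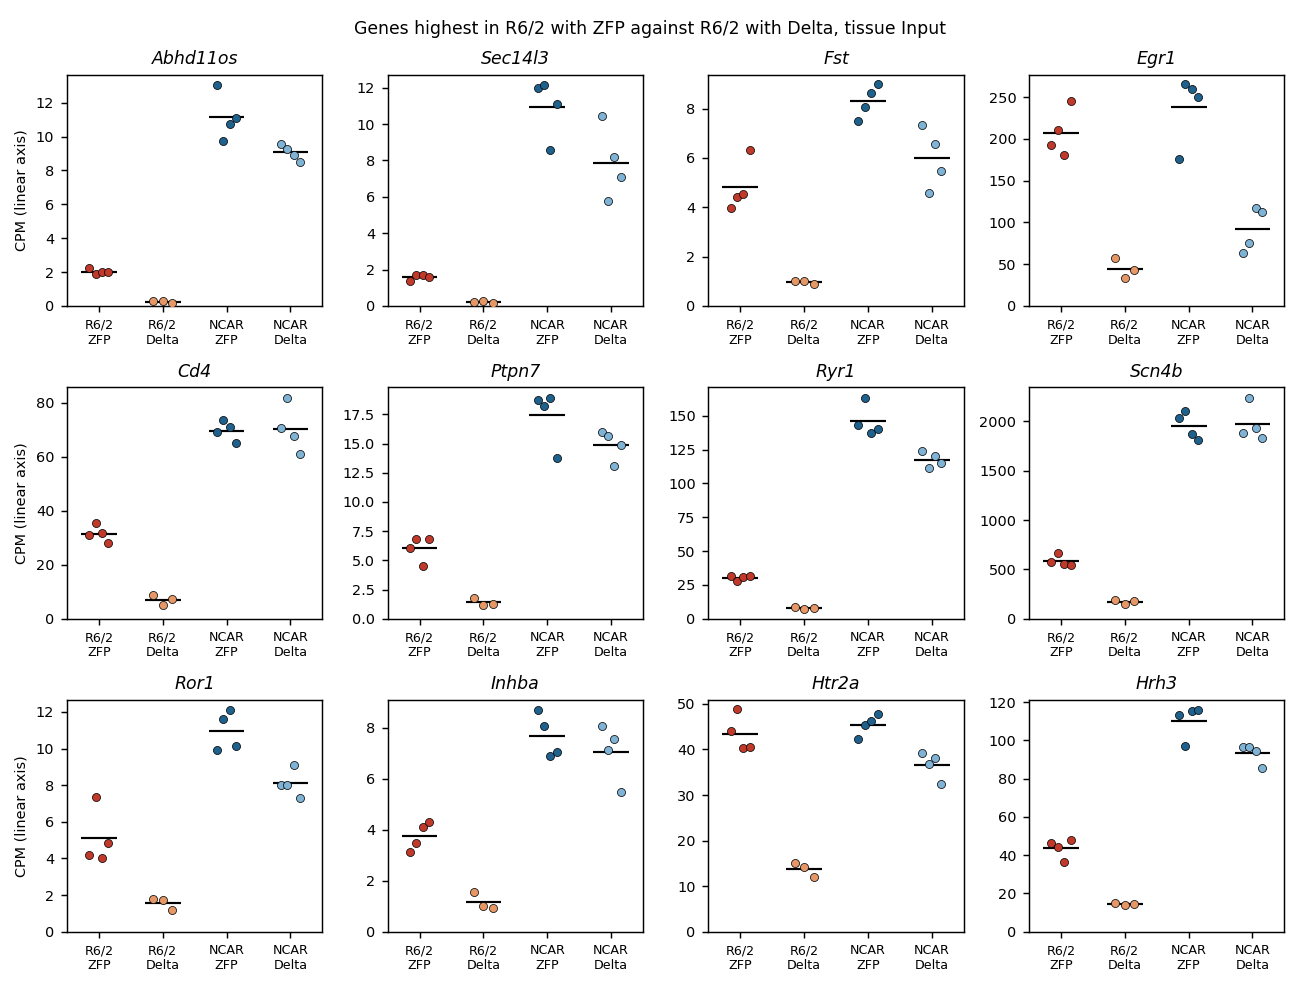
CPM (vertical axis, linear, from 0) of the 12 genes with the highest log2 fold changes under the naming rule (level and separate groups), by library, in R6/2 ZFP, R6/2 Delta, NCAR ZFP and NCAR Delta tissue. Points are libraries and bars are group means, and in every panel the 4 R6/2 ZFP points lie above the 3 R6/2 Delta points.

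Genes of striatal interneurons rose as well, those of cholinergic cells among them. Of 16 interneuron markers 9 rose and none fell, with a median of 0.62, beside 11.1% of all genes tested that rose. Chat, which makes acetylcholine, was at 16.12, 17.23, 16.13 and 16.34 CPM in R6/2 ZFP, against 8.577, 7.802 and 8.092 CPM in R6/2 Delta libraries (log2 fold change 1.01 ± 0.09). The choline transporter Slc5a7 was at 43.37, 41.49, 39.32 and 44.32 CPM in R6/2 ZFP and 21.91, 19.66 and 20.84 CPM in R6/2 Delta libraries (1.02 ± 0.06). Both were close to 2 times their R6/2 Delta levels in every ZFP library. Slc17a8, the vesicular glutamate transporter that cholinergic interneurons share, rose by 1.08. Nos1, the nitric oxide synthase of another interneuron class, was at 49.65, 53.54, 55.29 and 50.2 CPM in R6/2 ZFP and 31.25, 28.2 and 27.36 CPM in R6/2 Delta libraries (0.85 ± 0.06). Peptides and the calcium buffer of other interneurons did not pass: Npy had 0.34 (adjusted p = 0.134), Sst 0.19 (adjusted p = 0.391) and Pvalb 0.05 (adjusted p = 0.83).

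Of 19 activity-regulated genes 3 rose, and none fell (median 0.35), beside 11.1% of all genes tested that rose. Egr1, an immediate early transcription factor, was at 193.2, 210.6, 180.4 and 244.9 CPM in R6/2 ZFP, against 57.75, 33.06 and 43.2 CPM in R6/2 Delta libraries (log2 fold change 2.21 ± 0.27, adjusted p = 0.000114). The lowest ZFP library was more than 3 times the highest Delta library. Egr3, of the same family, was at 90.12, 84.61, 99.52 and 89.3 CPM in R6/2 ZFP and 56.38, 36.87 and 45.47 CPM in R6/2 Delta libraries (0.98 ± 0.11), and Homer1, a scaffold of metabotropic glutamate receptors, rose by 0.45. The immediate early genes Fos (-0.33, adjusted p = 0.788), Arc (0.35, adjusted p = 0.623) and Npas4 (1.04, adjusted p = 0.272) did not pass, and their groups overlapped.

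Ion channel genes rose in large part, beside 11.1% of all genes tested that rose and 5.03% that fell. Of 46 potassium channel genes 31 rose and 1 fell (median 0.35), and their sum was 5412.3 to 5523.5 CPM in R6/2 ZFP and 4091.6 to 4456.5 CPM in R6/2 Delta libraries. Kcnh4, a voltage-gated channel of the ether-a-go-go family, was at 14.44, 12.14, 12.87 and 11.9 CPM in R6/2 ZFP, against 4.783, 3.746 and 5.152 CPM in R6/2 Delta libraries (log2 fold change 1.49 ± 0.10). Kcnq3 and Kcnq5, subunits of the M current, rose by 0.75 and 0.72. The leak channel gene Kcnk2 rose by 0.75. The inward rectifiers Kcnj4 and Kcnj2 rose by 0.62 and 0.38, whereas Kcnj10, the inward rectifier of astrocytes, had -0.16 with overlapping groups (adjusted p = 0.552). Kcnn3, a calcium-activated channel, was the single gene of the list that fell, at 26.39, 24.82, 31.98 and 35.44 CPM in R6/2 ZFP and 59.28, 51.67 and 59.7 CPM in R6/2 Delta libraries (-0.94 ± 0.12).

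Of 37 sodium and calcium channel, release and pump genes 24 rose and 1 fell (median 0.24), beside 11.1% and 5.03% of all genes tested. The sodium-calcium exchanger Slc8a2 was at 197.7, 208.1, 205.4 and 186.2 CPM in R6/2 ZFP, against 120.6, 103.5 and 106.6 CPM in R6/2 Delta libraries (0.86 ± 0.05). The calcium channel genes Cacna2d3 and Cacna1h rose by 0.60 and 0.57, and the plasma membrane calcium pump Atp2b2 by 0.52. Its relative Atp2b3 was the gene that fell and is described with the lowest genes. Pore subunits of the main neuronal channels had smaller values: Scn8a rose by 0.35, Scn2a1 by 0.24 and Cacna1a by 0.23, while Scn1a had 0.14 (adjusted p = 0.0921).

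Most glutamate receptor genes rose, as did some GABA receptor genes, beside 11.1% of all genes tested. Of 24 glutamate receptor genes 18 rose and none fell (median 0.27). The metabotropic receptors Grm4 and Grm5 rose by 0.68 and 0.45 and the kainate receptor subunit Grik2 by 0.58. The AMPA receptor subunits Gria2 and Gria1 and the NMDA receptor subunits Grin2a and Grin1 rose by 0.25 to 0.28. Of 14 GABA receptor genes 6 rose and none fell (median 0.12). Gabrd, the subunit of tonic, extrasynaptic receptors, was at 74.13, 76.64, 73.23 and 62.94 CPM in R6/2 ZFP, against 40.24, 36.72 and 39.82 CPM in R6/2 Delta libraries (0.88 ± 0.07), clear of the other members. The subunit genes Gabrg3 and Gabra4 rose by 0.39 and 0.33.

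In signalling and release, 24 of 40 cyclic nucleotide and G protein genes rose and none fell (median 0.20), with 16 without the R6/2 Delta library numbered 2. Of all genes tested, 11.1% rose. Rgs4, which shortens G protein signals, was at 409.2, 435.9, 395.7 and 396.5 CPM in R6/2 ZFP, against 247.2, 208.4 and 231.2 CPM in R6/2 Delta libraries (0.84 ± 0.08). Its relative Rgs11 rose by 1.37 and Rgs8 by 0.46. The phosphodiesterase Pde2a rose by 0.46 and the adenylyl cyclase Adcy9 by 0.37, whereas Pde7b had 0.11 (adjusted p = 0.211). Of 32 synaptic vesicle and release genes 16 rose and none fell (median 0.21). Cplx2, a complexin that clamps vesicle fusion, was at 675.2, 698.9, 812.4 and 805.8 CPM in R6/2 ZFP and 524.6, 434.3 and 517.6 CPM in R6/2 Delta libraries (0.60 ± 0.07). The priming factors Unc13c and Unc13a rose by 0.51 and 0.35 and the calcium sensor Syt1 by 0.32, while the vesicle proteins Syp and Syn1 had 0.02 and -0.04 and did not pass.

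**Figure D2:**
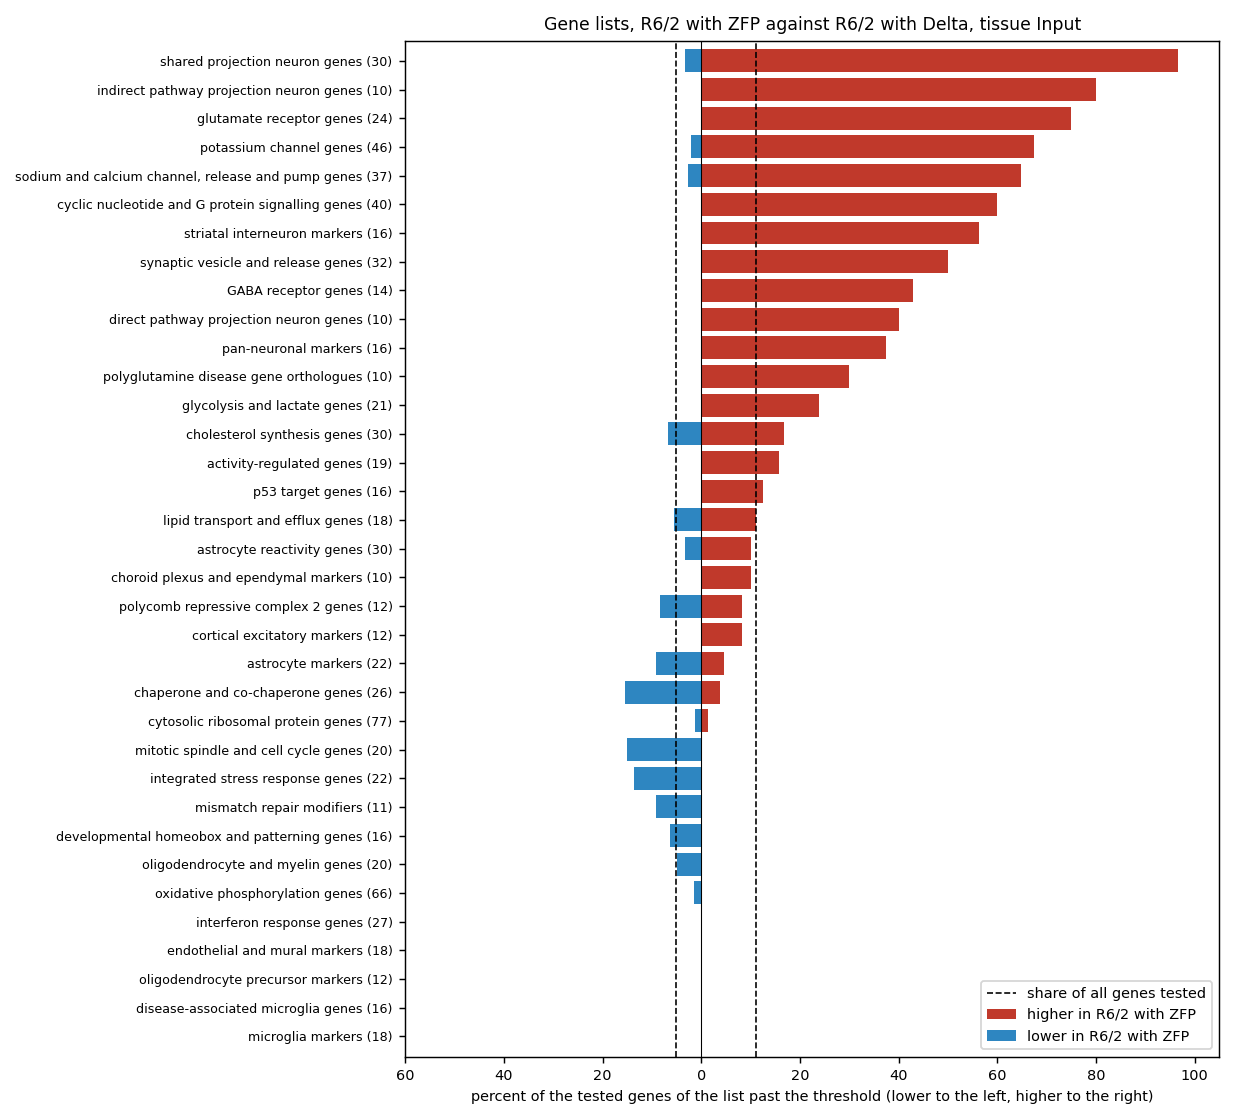
Percent of the tested genes of each list shown that passed the threshold (horizontal axis), higher in R6/2 ZFP to the right and lower to the left, with the number of tested genes after each list's name and dashed lines at the shares of all genes tested, 11.1% and 5.03%. The blood and meningeal list, with 8 tested genes, and the list of 5 genes chosen for their fall in the IP are not shown. The bar of the shared projection neuron genes reaches farthest to the right, with 29 of 30 genes, and the microglia, precursor, endothelial and interferon lists have no bar.

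A smaller share of the markers common to all neurons passed than of the shared projection neuron, indirect pathway and interneuron lists. Of direct pathway genes 4 of 10 rose, a share close to that of these markers. Of 16 pan-neuronal markers 6 rose and none fell (median 0.11), and their sum of 5858.6 to 6348.6 CPM in R6/2 ZFP overlapped that of 5578.5 to 5893 CPM in R6/2 Delta libraries. Rbfox3, which encodes the nuclear marker NeuN, was at 169.6, 168.3, 166.4 and 158.6 CPM in R6/2 ZFP and 127, 113.6 and 127.2 CPM in R6/2 Delta libraries (log2 fold change 0.43 ± 0.05). Eno2 and Thy1 rose by 0.35 and 0.20, and the dendritic protein gene Map2 had 0.04 and did not pass. Of 12 cortical excitatory markers 1, Lamp5, rose (0.54 ± 0.10), beside 11.1% of all genes tested that rose. In that list 9 of the 12 log2 fold changes were negative (median -0.11). The sum of that list was 217.57 to 309.75 CPM in R6/2 ZFP and 212.66 to 249.87 CPM in R6/2 Delta libraries, which overlapped.

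Few glial and vascular markers passed, beside 11.1% of all genes tested that rose and 5.03% that fell. Of 22 astrocyte markers 1 rose and 2 fell (median -0.05): Slc4a4, a bicarbonate transporter, rose by 0.20, and S100b and Mlc1 fell by 0.18 and 0.14 on the log2 scale. Neither of these last passed without the R6/2 Delta library numbered 3. The definers of astrocytes did not pass, with -0.36 for Gfap (adjusted p = 0.167), 0.10 for Aqp4, -0.05 for Aldh1l1 and -0.05 for Slc1a3. Gfap was at 110.7, 89.69, 115.5 and 88.06 CPM in R6/2 ZFP and 112.5, 149.7 and 127.9 CPM in R6/2 Delta libraries, which overlapped. Of 30 tested astrocyte reactivity genes 3 rose and 1 fell, among them the matrix gene Fbln5 (0.67) and the adhesion receptor Cd44 (0.49), with S1pr3 lower (-0.41). None of 18 microglia markers, 16 disease-associated microglia genes, 12 oligodendrocyte precursor markers, 18 endothelial and mural markers or 27 interferon response genes passed. The medians of both microglia lists were -0.09 and -0.13. The microglia sum was 605.26 to 683.83 CPM in R6/2 ZFP and 618.82 to 732.99 CPM in R6/2 Delta libraries. The endothelial and mural sum of 277.81 to 293.36 CPM in R6/2 ZFP lay below that of 297.03 to 301.51 CPM in R6/2 Delta libraries.

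The oligodendrocyte list was uniform in sign. All 20 of its genes had negative log2 fold changes (median -0.19), though only 1 fell, Plekhb1 (-0.23), and it did not pass without the R6/2 Delta library numbered 2. The number of genes of the list that fell was 0 to 2 with a library left out and 1 to 5 under the other settings. The summed level was 5804 to 7140 CPM in R6/2 ZFP and 6872.3 to 8180.7 CPM in R6/2 Delta libraries. These ranges overlapped, and every R6/2 ZFP library lay below the 7689.5 to 9319.1 CPM of NCAR Delta libraries. The part of oligodendrocyte RNA in the neuronal results was not tested.

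In the metabolic and stress lists at most 5 genes per direction passed, beside 11.1% of all genes tested that rose and 5.03% that fell. Of 30 cholesterol synthesis genes 5 rose and 2 fell (3 and 0 without the R6/2 Delta library numbered 2). The synthesis enzymes Fdft1 and Msmo1 rose by log2 fold changes of 0.20 and 0.22, and Lss fell by 0.21 on the log2 scale. Of 18 lipid transport genes 2 rose, among them Cyp46a1, the neuronal enzyme of cholesterol removal (0.24), and 1 fell, the efflux pump Abca1 (-0.26). Of 21 glycolysis genes 5 rose, with Ldha at 0.18, and 2 rose without the R6/2 Delta library numbered 2. Of 26 chaperone genes 1 rose and 4 fell. Dnajc12, a J-domain co-chaperone, fell most and is among the lowest genes, followed by Hspa5, the chaperone of the endoplasmic reticulum (-0.24), and Ahsa1, an activator of Hsp90 (-0.21). Of 22 integrated stress response genes 3 fell, led by Shmt2 (-0.34), and 1 fell without the R6/2 Delta library numbered 1 or without that numbered 2. The sum of this list was 861.45 to 902.68 CPM in R6/2 ZFP, below 910.25 to 921.07 CPM in R6/2 Delta libraries. The sums of the cholesterol, lipid transport, glycolysis and chaperone lists overlapped between the groups.

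Mitotic genes went the other way in small number. Of 20 mitotic spindle and cell cycle genes 3 fell (median -0.21) and none rose, beside 5.03% of all genes tested that fell. Tpx2, a spindle assembly factor, was at 8.06, 7.5, 7.889 and 8.299 CPM in R6/2 ZFP, against 13.52, 14.55 and 15.2 CPM in R6/2 Delta libraries (log2 fold change -0.86 ± 0.11, adjusted p = 1.67e-05). Cdc20, an activator of the anaphase-promoting complex, was at 2.246, 2.385, 1.746 and 1.946 CPM in R6/2 ZFP and 3.38, 3.529 and 4.396 CPM in R6/2 Delta libraries (-0.86 ± 0.16). The groups were apart for both, and the spindle kinesin Kif20a fell too (-0.59). Summed over the list, R6/2 ZFP libraries had 51.119 to 55.044 CPM and R6/2 Delta libraries 61.955 to 74.17 CPM.

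The counts of the next lists stand beside 11.1% of all genes tested that rose and 5.03% that fell. Of 10 orthologues of CAG repeat disease genes 3 rose and none fell. Their sum was 1306 to 1338 CPM in R6/2 ZFP, above 1159.9 to 1237.8 CPM in R6/2 Delta libraries. Atxn1, mutated in spinocerebellar ataxia, was at 369.9, 383, 375.6 and 386.1 CPM in R6/2 ZFP, against 303.8, 268.2 and 271.6 CPM in R6/2 Delta libraries (log2 fold change 0.43 ± 0.04), and Ppp2r2b and Cacna1a rose by 0.18 and 0.23. Of 77 cytosolic ribosomal protein genes 1 rose, Rps19 (0.19), and 1 fell, Rplp1, which is described next. Of 66 tested oxidative phosphorylation genes 1 fell, Ndufb6 (-0.19). Of 12 polycomb repressive complex 2 genes 1 rose, Aebp2 (0.16), and 1 fell, Suz12 (-0.14). Of 16 tested homeobox and patterning genes 1 fell, Wt1, whose groups overlapped and which did not pass when only the R6/2 libraries were fitted. Of 16 p53 target genes 2 rose, Plk2 (0.36) and Zmat3 (0.33).

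At the other end, the 12 lowest log2 fold changes under the same rule ranged from -1.62 to -0.95. Genes below a mean of 5 CPM over the 15 Input libraries, or with overlapping groups, were left out, as were symbols of the kinds passed over. Not all of the 20 genes that fell more than 2-fold are therefore among them. Of these 12 genes 11 were on none of the neuronal lists. Tceal6, of a family of X-linked transcription elongation factor homologues, was at 13.61, 12.05, 17.04 and 16.34 CPM in R6/2 ZFP, against 44.93, 43.1 and 47.65 CPM in R6/2 Delta libraries (-1.62 ± 0.15, adjusted p = 4.55e-06). Nap1l3, a nucleosome assembly protein homologue, was at 25.34, 18.77, 26.77 and 31.29 CPM in R6/2 ZFP and 78.89, 75.2 and 77.14 CPM in R6/2 Delta libraries (-1.60 ± 0.20). In both genes the ZFP libraries had about 33% of the Delta level, and no library was near the other group. Dnajc12 was at 4.096, 4.268, 5.82 and 5.912 CPM in R6/2 ZFP, against 11.99, 14.58 and 13.51 CPM in R6/2 Delta libraries (-1.41 ± 0.14). Atp2b3, a plasma membrane calcium pump of neurons, was at 60.62, 45.63, 71.52 and 67.02 CPM in R6/2 ZFP and 162.8, 149.8 and 153.5 CPM in R6/2 Delta libraries (-1.35 ± 0.21). The groups were apart for both.

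The next genes were Dach1, a transcriptional cofactor of the Ski family, at 49.85, 47.55, 55.94 and 51.92 CPM in R6/2 ZFP against 133.5, 111.7 and 129.3 CPM in R6/2 Delta libraries (-1.28 ± 0.13), and Mzt2, a subunit of microtubule-nucleating complexes (-1.28 ± 0.11). Brdt, a bromodomain protein known from the testis, followed at -1.09 ± 0.14. Impdh1, an enzyme of guanine nucleotide synthesis, was at 15.03, 15.57, 18.33 and 17.81 CPM in R6/2 ZFP and 37.24, 33 and 35.08 CPM in R6/2 Delta libraries (-1.07 ± 0.13). Rplp1, a ribosomal stalk protein, was at 113.3, 101.9, 121.7 and 124 CPM in R6/2 ZFP and 234.8, 241.6 and 225.2 CPM in R6/2 Delta libraries (-1.02 ± 0.07). The ZFP libraries of Rplp1 stood at about 49% of the Delta level while its partner genes of the ribosome did not pass, other than Rps19. Rsl24d1, a ribosome assembly factor, was at 12.39, 10.32, 13.81 and 11.16 CPM in R6/2 ZFP and 23.88, 24.24 and 23.75 CPM in R6/2 Delta libraries (-1.01 ± 0.09). Lysmd2 (-0.99 ± 0.08) and the mitochondrial GTPase Noa1 (-0.95 ± 0.08) completed the 12. Tceal6, Mzt2 and Rplp1 have near-identical relatives that may share reads with them.

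**Figure D3:**
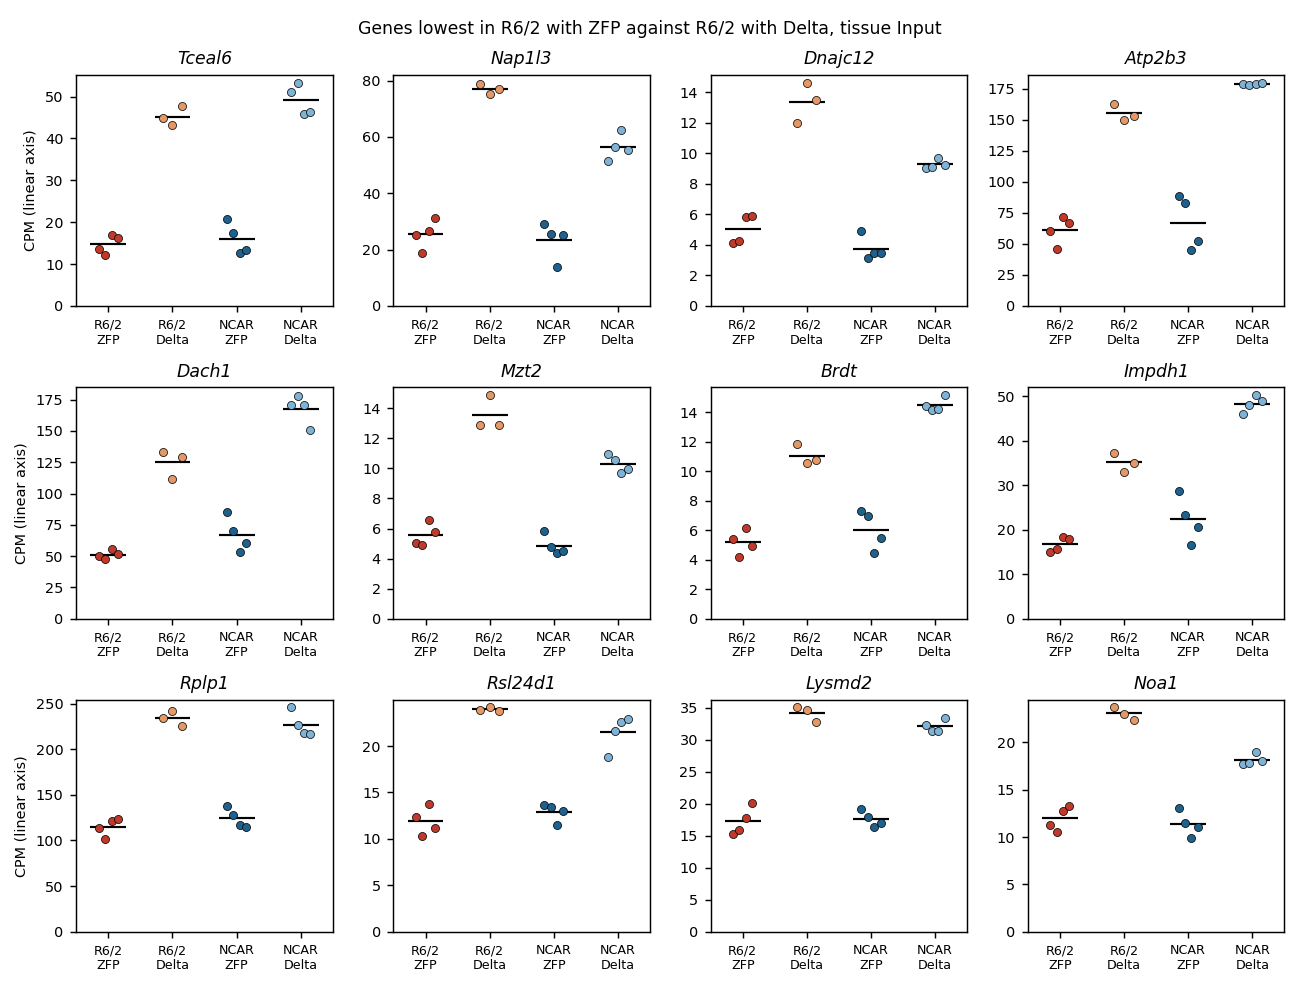
CPM (vertical axis, linear, from 0) of the 12 genes with the lowest log2 fold changes under the naming rule (level and separate groups), by library, in R6/2 ZFP, R6/2 Delta, NCAR ZFP and NCAR Delta tissue. Points are libraries and bars are group means. The ZFP libraries lie below the Delta libraries in R6/2 and in NCAR alike.

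The comparison of NCAR ZFP with NCAR Delta tissue, which shares no library with the R6/2 comparison, gives the change with the ZFP in NCAR mice. There 151 genes (0.957%) passed, 75 (0.475%) higher and 76 (0.482%) lower. The count was 77 without the NCAR ZFP library numbered 4 and 84 without the NCAR Delta library numbered 2. Of the genes lower in NCAR, 43 also fell in R6/2 (56.6% of the NCAR list and 5.42% of the R6/2 list), and 8 of the 76, Rgs4 among them, rose in R6/2. Of the genes higher in NCAR, 52 also rose in R6/2 (69.3% of the NCAR list and 2.97% of the R6/2 list), and 0 fell there. All 12 lowest genes named in R6/2 passed in NCAR in the same direction.

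Tceal6 was at 20.83, 17.36, 12.56 and 13.38 CPM in NCAR ZFP, against 51.07, 53.19, 45.79 and 46.28 CPM in NCAR Delta libraries. Its log2 fold change was -1.62 ± 0.15 in R6/2 and -1.61 ± 0.14 in NCAR. Atp2b3 had -1.35 ± 0.21 in R6/2 and -1.41 ± 0.20 in NCAR, and Dach1 -1.28 ± 0.13 in R6/2 and -1.32 ± 0.12 in NCAR. The 43 genes that fell in both genotypes had medians of -0.75 in R6/2 and -0.81 in NCAR, and for none of them did the difference between the genotypes pass the test. Arpp21, the exception among projection neuron genes, was 1 of these, at 877, 799.3, 619.2 and 677.4 CPM in NCAR ZFP and 1729, 1698, 1670 and 1689 CPM in NCAR Delta libraries (-1.19 ± 0.10). Kcnn3, the exception among potassium channels, fell by 1.17 in NCAR on the log2 scale. The 52 genes that rose in both had medians of 0.51 in R6/2 and 0.28 in NCAR, and for 22 of them the difference passed.

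Egr1, Slitrk6, P2ry1 and Scarna2 were the highest named genes of the NCAR comparison and rose in R6/2 as well. Egr1 was at 175.8 to 265.5 CPM in NCAR ZFP and 63.18 to 117.3 CPM in NCAR Delta libraries (1.37 ± 0.23, adjusted p = 0.0157), and its difference between the genotypes, 0.85, did not pass (adjusted p = 0.18). Slitrk6, a synaptic adhesion protein, rose by 0.80 ± 0.13 in R6/2 and 0.81 ± 0.13 in NCAR. P2ry1, a purinergic receptor, rose by 0.84 ± 0.13 in R6/2 and 0.70 ± 0.12 in NCAR. Scarna2, a small nuclear RNA of the Cajal body, rose by 0.94 ± 0.22 in R6/2 and 1.42 ± 0.20 in NCAR.

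**Figure D4:**
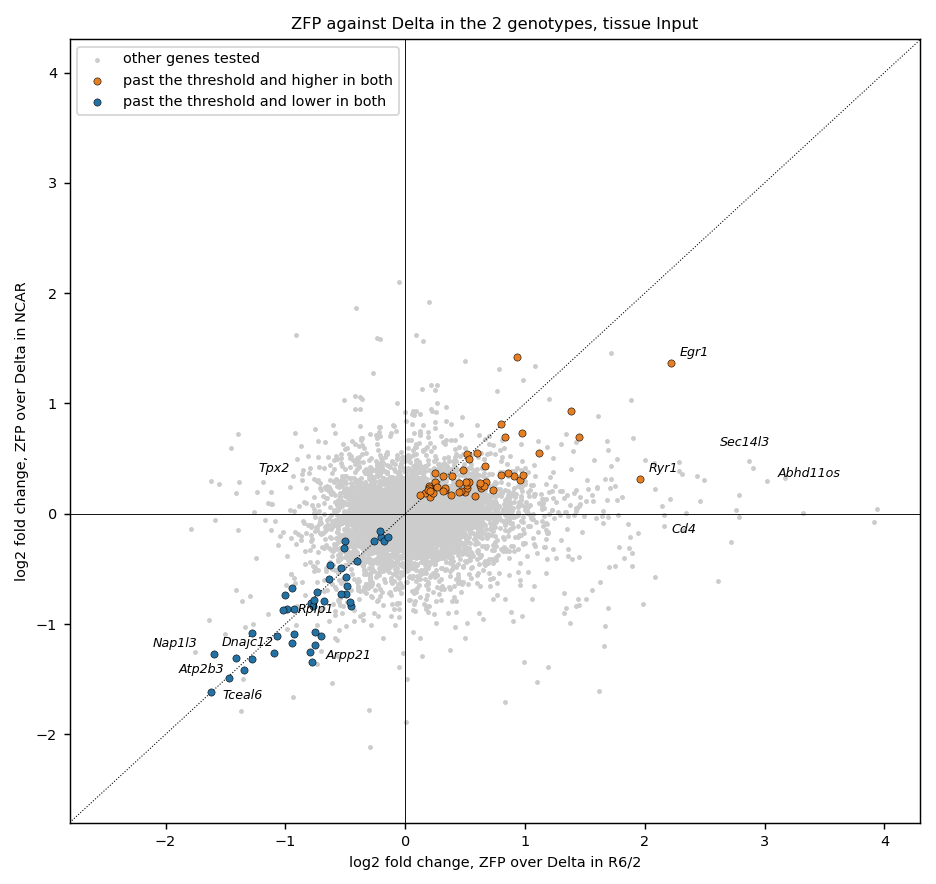
Log2 fold change of ZFP over Delta in R6/2 (horizontal axis) and in NCAR (vertical axis) for all genes tested, each from its own libraries. Genes past the threshold in both genotypes are coloured by direction. The genes lower in both lie along the dotted line of equal change, and Abhd11os, Sec14l3, Cd4 and Ryr1 lie far to the right and near or just above 0 on the vertical axis.

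The ZFP is directed at CAG repeats, so the promoters of the genes lower in both genotypes were searched for CAGCAGCAG on both strands in RefSeq windows (GRCm38.p6) that reach from 250 bases before to 50 bases after a gene's start. Of the 43 genes 27 had a window, and 8 of them (29.6%) held the motif. A gene was counted if any of its windows held the motif. Among all genes tested that had a window, 296 of 12254 (2.42%) held it. So did 1 of 41 such genes higher in both genotypes (2.44%). Of the genes called lower in R6/2 but not called lower in NCAR, 10 of 623 held it (1.61%). The lack of a call does not show that a gene was unchanged in NCAR. Of the 12 lowest genes 6 had a window and 3 held the motif, and of the 12 highest genes 9 had a window and 0 held it. These are descriptions of letters in a window, not of binding. Stretches of 7 of the 8 genes are printed from the strand of the gene, with the repeat in capitals. Tceal6, Impdh1 and Rsl24d1 belong to the 12 lowest, and the other genes were named after their values were seen.
Tceal6, chrX:135210638-135210667, minus strand: cccccgcgccagctagtcCTGCTGCTGCTG
Impdh1, chr6:29212248-29212277, minus strand: cagcgtggcctcggtgcgcgtCAGCAGCAG
Rsl24d1, chr9:73113273-73113363, plus strand: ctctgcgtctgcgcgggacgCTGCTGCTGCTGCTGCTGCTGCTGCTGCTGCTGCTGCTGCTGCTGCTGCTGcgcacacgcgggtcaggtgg
Fkbp3, chr12:65073919-65073948, minus strand: cagtgcagcggCAGCAGCAGgggaagatgg
Primpol, chr8:46617399-46617453, minus strand: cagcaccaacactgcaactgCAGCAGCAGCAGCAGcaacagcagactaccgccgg
Ndrg3, chr2:156992062-156992091, minus strand: gcgcagcgccccccctccttgCTGCTGCTG
Mt3, chr8:94152357-94152438, plus strand: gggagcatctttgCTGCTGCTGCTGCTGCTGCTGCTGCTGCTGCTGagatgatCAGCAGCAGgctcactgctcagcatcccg
The longest repeat, of 51 bases, was that of Rsl24d1, starting 176 bases before the gene's start. Mt3 held 33 bases starting 237 before its start, Primpol 15 bases starting 206 before, and Tceal6 12 bases from base 39 after the start. In Fkbp3, Impdh1 and Ndrg3 the run had the searched 9 letters and lay after the start. The runs of Tceal6, Impdh1 and Ndrg3 reach the last base of the window, so their lengths are lower bounds.

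The changes of these 7 genes follow. Impdh1 had -1.07 ± 0.13 in R6/2 and -1.11 ± 0.12 in NCAR. Tceal6, whose run is cut by the window, had -1.62 in R6/2, and Rsl24d1, with 51 bases, had -1.01 ± 0.09 in R6/2 and -0.74 in NCAR. Fkbp3, a prolyl isomerase of the nucleus, averaged 58.0 ± 7.17 CPM in R6/2 ZFP and 110 ± 2.76 CPM in R6/2 Delta libraries (SD, n = 4 and 3; log2 fold change -0.93 ± 0.10). Ndrg3, of the N-myc downstream-regulated family, averaged 200 ± 11.8 CPM in R6/2 ZFP and 284 ± 3.11 CPM in R6/2 Delta libraries. Primpol, a primase-polymerase that restarts stalled replication, averaged 5.10 ± 0.275 CPM in R6/2 ZFP and 7.02 ± 0.321 CPM in R6/2 Delta libraries. Mt3, the brain metallothionein, had 33 bases of repeat and the smallest change, at 64.3 ± 2.19 CPM in R6/2 ZFP and 76.9 ± 3.19 CPM in R6/2 Delta libraries (-0.26 ± 0.06, adjusted p = 0.0068).

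The difference of the ZFP effect between genotypes (R6/2 minus NCAR) was tested directly. It passed for 1273 genes (8.07%), of which 1055 (6.69%) were more positive in R6/2 and 218 (1.38%) more negative. Without the R6/2 Delta library numbered 2 the count was 837. The most positive were Abhd11os (2.72 ± 0.22), Sec14l3 (2.39 ± 0.36), Cd4 (2.18 ± 0.19) and Ptpn7 (1.86 ± 0.22). Of the 30 shared projection neuron genes 28 were more positive in R6/2, as were 8 of 16 interneuron markers, 27 of 46 potassium channel genes and 18 of 40 cyclic nucleotide and G protein genes. For the 30 projection neuron genes 2 passed upward and 2 downward in NCAR. Scn4b, for example, was at 2033, 2106, 1874 and 1808 CPM in NCAR ZFP and 1884, 2239, 1931 and 1829 CPM in NCAR Delta libraries, which overlapped (-0.01 ± 0.09), and its difference between genotypes was 1.79 ± 0.13. Rgs4 was lower in NCAR ZFP tissue (-0.32 ± 0.07, adjusted p = 0.0363) and higher in R6/2 ZFP tissue. The most negative differences were those of Tpx2 (-1.17), the thrombin receptor F2r (-0.87), the zinc-finger gene Zfp568 (-0.79) and the steroid enzyme Hsd11b1 (-0.73).

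The R6/2 Delta libraries were also set against NCAR Delta, and R6/2 ZFP against NCAR Delta. These comparisons share libraries with that of the ZFP in R6/2, so values are given side by side with no measure of likeness. In R6/2 Delta tissue 7742 genes (49.1%) differed from NCAR Delta, 3851 (24.4%) higher and 3891 (24.7%) lower. In R6/2 ZFP tissue 5653 genes (35.8%) differed from NCAR Delta, 2711 (17.2%) higher and 2942 (18.6%) lower. All 30 shared projection neuron genes were lower in R6/2 Delta than in NCAR Delta, and 27 were lower and 1 higher in R6/2 ZFP than in NCAR Delta. Of 46 potassium channel genes 40 were lower and 2 higher in R6/2 Delta than in NCAR Delta, and 32 were lower and 4 higher in R6/2 ZFP. Of 22 astrocyte markers 17 were lower and 1 higher in R6/2 Delta (median -0.41). In R6/2 ZFP 20 of these markers were lower and 1 higher than in NCAR Delta (median -0.49).

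Ryr1 was at 27.74 to 31.73 CPM in R6/2 ZFP libraries, against 111.4 to 123.9 CPM in NCAR Delta libraries. Its log2 fold changes were 1.96 for R6/2 ZFP over R6/2 Delta, -3.91 for R6/2 Delta over NCAR Delta and -1.95 for R6/2 ZFP over NCAR Delta. For Scn4b the same 3 values were 1.77, -3.53 and -1.75, for Pde10a 1.05, -2.12 and -1.07, and for Penk 0.95, -2.08 and -1.13. These genes stayed below NCAR Delta in every R6/2 ZFP library. Fst (-0.32 ± 0.15, adjusted p = 0.101) and Tac1 (0.05 ± 0.05, adjusted p = 0.486) did not pass between R6/2 ZFP and NCAR Delta. For Htr2a the 3 values were 1.67, -1.42 and 0.25.

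Some genes stayed far from their NCAR Delta level. Phex, an endopeptidase, had 0.42 with the ZFP (adjusted p = 0.128) and -2.83 for R6/2 ZFP over NCAR Delta. Cpne9, a copine, rose by 1.35 ± 0.20 and was still at -2.32, and Abi3bp, a matrix protein, rose by 1.26 and was at -2.45. On the side of genes higher in R6/2, the collagen gene Col5a2 had 0.06 with the ZFP and 1.83 for R6/2 ZFP over NCAR Delta, and the polycomb protein gene Sfmbt2 had -0.37 (adjusted p = 0.118) and 1.52. Ggact, an enzyme that breaks down gamma-glutamylamines, was at 14.21, 14.66, 14.58 and 15.94 CPM in R6/2 ZFP and 22.77, 21.92 and 21.16 CPM in R6/2 Delta libraries, with 7.069 to 8.501 CPM in NCAR Delta libraries. It fell with the ZFP by 0.56 on the log2 scale and stayed above NCAR Delta (0.92 ± 0.07). Slitrk6 went further from NCAR Delta, at 32.57, 42.46, 28.78 and 37.38 CPM in R6/2 ZFP, 19.8, 22.54 and 18.37 CPM in R6/2 Delta and 7.853 to 10.44 CPM in NCAR Delta libraries.

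The IP of the same set, in which the pulled-down cell type is labelled astrocytes, gave a larger change. Of 15246 genes tested 5151 (33.8%) passed between R6/2 ZFP and R6/2 Delta IP, 2915 (19.1%) higher and 2236 (14.7%) lower. Of genes tested in both fractions, 1558 rose in both, which is 89.7% of those that rose in Input and 53.5% of those that rose in IP. Another 594 fell in both, which is 75% of the Input list and 26.6% of the IP list, and 3 genes rose in Input and fell in IP. Input and IP libraries of the same condition and number deviated together, so the 2 fractions are not independent samples. Of the 30 shared projection neuron genes, 29 rose and 1 fell in IP as in Input. Astrocyte markers differed in their counts, with 1 higher and 2 lower of 22 in Input and 0 higher and 21 lower in IP.

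The difference of the ZFP effect between Input and IP passed for 302 of 16255 genes (1.86%), 158 (0.972%) more positive in Input and 144 (0.886%) more negative. With the library pair as a block, 1285 passed, 681 more positive in Input and 604 more negative. Fewer passed without the R6/2 Delta Input libraries numbered 1 (125) or 3 (130), the R6/2 ZFP Input library numbered 4 (140), the R6/2 Delta IP library numbered 2 (145) or the R6/2 ZFP IP libraries numbered 2 (148) or 1 (190). Several of the lowest genes of Input fell far more in IP. Tceal6 had -1.62 ± 0.15 in Input and -4.55 ± 0.14 in IP (difference 2.97 ± 0.22), Nap1l3 -1.60 ± 0.20 and -3.88 ± 0.18 (2.32 ± 0.28), and Atp2b3 -1.35 ± 0.21 and -3.49 ± 0.28 (2.17 ± 0.35). All 5 genes of a list chosen for their fall in this IP fell in Input too, with a median of -1.41, and Impdh1 had -1.07 in Input and -2.41 in IP. Since the list came from libraries of the same set, it is not independent of them. Rplp1 differed little between the fractions, with -1.02 ± 0.07 in Input and -1.18 ± 0.08 in IP (difference 0.19 ± 0.11, adjusted p = 0.431).

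On the other side, Abhd11os rose more in Input (3.02 ± 0.19) than in IP (1.26 ± 0.19), a difference of 1.80 ± 0.30. Adora2a rose by 0.92 ± 0.07 in Input and 1.62 ± 0.11 in IP (difference -0.67 ± 0.14, adjusted p = 0.0115), and Penk, too, rose less in Input (-0.52 ± 0.10, adjusted p = 0.00684). Pde10a had -0.40 ± 0.12 (adjusted p = 0.0977) and passed with the library pair as a block (-0.41 ± 0.07, adjusted p = 0.00113). Drd1a had -0.43 ± 0.13 (adjusted p = 0.087) and also passed with the pair block (-0.44 ± 0.07, adjusted p = 0.000444). Of the 30 shared projection neuron genes 5 were more negative in Input, and 21 with the pair block. Of the 22 astrocyte markers, 7 were more positive in Input, and 15 with the pair block. Among the most negative differences were those of Nckap1l, an actin regulator of blood and microglial cells (-1.14 ± 0.17), Arap3, a GTPase regulator (-1.12 ± 0.21), and Dlx1as, an antisense RNA of the Dlx1 locus (-0.98 ± 0.17). Nckap1l and Arap3 had 0.06 and -0.02 in Input with overlapping groups. Their log2 fold changes in IP were 1.24 and 1.14.

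**Figure D5:**
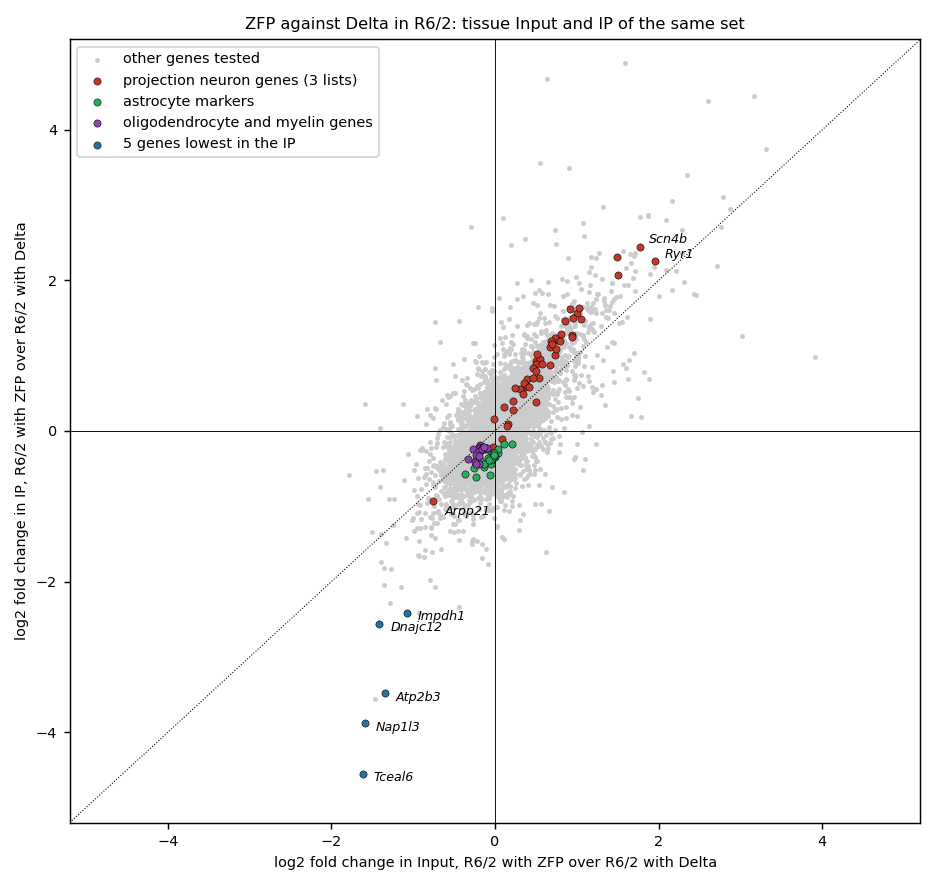
Log2 fold change of R6/2 ZFP over R6/2 Delta in tissue Input (horizontal axis) and in the IP of the same set (vertical axis) for genes tested in both, with the projection neuron genes, astrocyte markers, oligodendrocyte genes and the 5 genes lowest in the IP coloured. Tceal6, Nap1l3 and Atp2b3 lie far below the dotted line of equal change, and the astrocyte markers lie near 0 on the horizontal axis and below 0 on the vertical axis.

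The Input of the n_ZFP_n_Rpl set, with 4 R6/2 ZFP and 4 R6/2 Delta libraries and neurons as the cell type pulled down, gave fewer calls. Of 15821 genes tested 525 (3.32%) passed, 394 (2.49%) higher and 131 (0.828%) lower. Of genes tested in both Inputs, 351 rose in both, which is 20.2% of the genes that rose in the n_ZFP_a_Rpl Input and 89.3% of those that rose in the other. Another 78 fell in both, at 9.84% and 60.5% of the lists, and none was called in opposite directions. Of the 30 shared projection neuron genes 29 rose in the n_ZFP_a_Rpl Input and 15 in the n_ZFP_n_Rpl Input, of 46 potassium channel genes 31 and 11, and of 16 interneuron markers 9 and 9. The lists hold different numbers of calls, but the test of the difference between the sets passed for 5 of 16210 genes (0.0308%), all more positive in the n_ZFP_a_Rpl Input.

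Those differences were small in number and rested on single libraries. At an unadjusted p under 0.05 there were 1070 genes, and DESeq2 called 38. Hrh3 had 1.60 ± 0.09 in the n_ZFP_a_Rpl Input and 0.84 ± 0.10 in the n_ZFP_n_Rpl Input (difference 0.76 ± 0.14, adjusted p = 0.0453). Slc8a2 had 0.86 and 0.36 (difference 0.49), Kcnq3 0.75 and 0.34 (0.41) and Rab15, a GTPase of membrane recycling, 0.66 and 0.28 (0.37). The remaining gene was Parp6, an ADP-ribosyltransferase, named here after its values were seen (difference 0.35 ± 0.07). The count was 0 without the R6/2 Delta library numbered 2 or 3 or the R6/2 ZFP library numbered 2 of the n_ZFP_a_Rpl set, and without the R6/2 Delta library numbered 2 or the R6/2 ZFP library numbered 3 or 4 of the n_ZFP_n_Rpl set. It was 1 without the R6/2 ZFP library numbered 3 of the n_ZFP_a_Rpl set or the R6/2 Delta library numbered 1 of the other, and 2 without the R6/2 ZFP library numbered 1 of the n_ZFP_a_Rpl set. It was 3 without the R6/2 Delta library numbered 3 or the R6/2 ZFP library numbered 1 of the n_ZFP_n_Rpl set, and 10 without the R6/2 Delta library numbered 1 of the n_ZFP_a_Rpl set. The lowest genes fell in both Inputs: Tceal6 had -1.62 ± 0.15 in the n_ZFP_a_Rpl Input and -1.12 ± 0.12 in the other, and Nap1l3 -1.60 ± 0.20 and -0.96 ± 0.11, without a difference that passed.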

How the data were processed

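The values are raw counts of reads per gene, deposited by the authors as 1 table with a column for each of 110 libraries. The submitters' processing notes name STAR for alignment, HTSeq for counting and mm10 as the genome; they state no version or strand option. Libraries came from the TruSeq kit, per the labels. The 4 rows whose symbol occurred more than once were dropped, which left 24056 of 24060.

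The test was edgeR 4.0.16 (R 4.3.3): TMM scaling, the filterByExpr filter with a minimum count of 10 and a minimum total of 15, a robust quasi-likelihood fit of all 4 conditions over the 15 Input libraries, and Benjamini-Hochberg adjustment with a threshold of 0.05. Input and IP were fitted together over 30 libraries, and the Inputs of both sets over 31. A standard error is the log2 fold change divided by the root of its F statistic. The procedure was tested on simulated data.

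The libraries, the 37 gene lists (851 genes) and the tests were chosen with earlier results of these data known. Genes were named by rule: the 12 highest and 12 lowest changes past the threshold with a mean of at least 5 CPM over the 15 Input libraries and separate groups, 4 per direction in each other comparison, and from each list the first 4 tested genes plus up to 4 per direction with the lowest adjusted p. Symbols of the Gm, Rik, -ps, Mir and Snor kinds, Xist, Tsix and Y-linked genes were passed over outside the lists, and Htt and Rpl22 are always given. RefSeq promoter windows were matched by symbol for 12254 of 15780 genes. Some genes that fall under these rules are not reported here.

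Whether equal numbers mark paired libraries was checked from deviations around the group means. Between Input and IP of a condition the correlation across genes was 0.395 to 0.6 for the 15 pairs with the same number and -0.352 to -0.028 for the 42 with different numbers, so equal numbers pair these libraries in the data; the labels are silent on it. The Input minus IP values come from the fit without a pair block, and the blocked value stands beside those whose call it changes. The alternatives were RLE factors, DESeq2 1.42.0, a table without the filter, a block by number, a fit of the compared groups alone, and leaving out single libraries.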

Additional observations from a re-analysis of the deposited data

Results flagged for a closer look

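In 2 of 84 groups of 4 libraries checked, 1 library stood far from the others, and chance flags about 1 group in 20. Ptpn7 was at 13.801 CPM in the NCAR ZFP library numbered 4, below the other NCAR ZFP libraries, and Hrh3 was at 96.874 CPM in the NCAR ZFP library numbered 2, also below the others. Neither library belongs to the R6/2 comparison.

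The ZFP effect differed between R6/2 and NCAR tissue for 1273 genes by the interaction test. The most positive differences (R6/2 minus NCAR, log2) were those of Abhd11os (2.72), Sec14l3 (2.39), Cd4 (2.18) and Ptpn7 (1.86). The most negative were those of Tpx2 (-1.17), F2r (-0.87), Zfp568 (-0.79) and Hsd11b1 (-0.73).

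With the library pair as a block, the ZFP effect in R6/2 differed between Input and IP for 1285 genes. In the fit without that block it differed for 302 genes. The most positive differences (Input minus IP, log2) were those of Tceal6 (2.97), Nap1l3 (2.32), Atp2b3 (2.17) and Abhd11os (1.8), and among the most negative were those of Nckap1l (-1.14), Arap3 (-1.12) and Dlx1as (-0.98). Between the Inputs of the n_ZFP_a_Rpl and n_ZFP_n_Rpl sets it differed for 5 genes, with Hrh3 (0.76), Slc8a2 (0.49), Kcnq3 (0.41) and Rab15 (0.37) highest.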

How the results depend on the processing

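For ZFP against Delta in R6/2 Input the count of 2545 genes was 2536 with RLE factors, 2755 with DESeq2, 2376 with no filter and 2384 with only the groups compared. It ranged from 1677 to 2297 with a library left out. RLE factors put 73.1% of the calls on the higher side, against 68.8% with TMM. The 12 highest and 12 lowest genes kept their direction and stayed past the threshold in all 288 of 288 combinations of gene and alternative. No named gene reversed where it passed in the main fit or in the alternative. A change of sign was not counted where the gene passed in neither. Over 233 named genes, 9 results fell short of the threshold and 24 newly passed it under other settings, and 69 and 7 did so with a library left out. Counts of 1 to 5 genes in the glial, metabolic and stress lists changed with single libraries.

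R6/2 Delta against NCAR Delta ranged from 6748 to 7373 and R6/2 ZFP against NCAR Delta from 4990 to 5363 with a library left out. ZFP against Delta in NCAR gave 336 genes with DESeq2, 95 with only the groups compared and 77 to 151 with a library left out. The 52 genes higher in both genotypes were 117 with DESeq2 and 34 with only the groups compared, and the 43 lower in both were 38 to 51 under other settings. The interaction ranged from 837 to 1293 with a library left out.

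Input minus IP gave 636 genes with DESeq2, 461 with only the groups compared, and 125 to 317 with a library left out. With the library pair as a replicate block, chosen after seeing the data, it gave 1285. Its share of more positive calls was 52.3%, against 41.9% with no filter and 28.6% with only the groups compared. The difference between the Inputs of both sets gave 0 genes with RLE factors, 38 with DESeq2, 2 with no filter, 13 with only the groups compared and 0 to 10 with a library left out. Among Input libraries, equal numbers did not pair the samples (correlation -0.08 to 0.193 over 21 pairs). A replicate block by number gave 2784 genes for ZFP against Delta in R6/2, 186 in NCAR, 1464 for the interaction, 433 for Input minus IP and 9 for the difference between the Inputs. The causes of these changes were not tested. The interaction has no value with only the groups compared, since it uses all 4 conditions.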
